A study of Homo sapiens with 72 samples.

Results

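The proteasome subunits of the melanoma cell line A375 were described from 3′-end counts of cytoplasmic mRNA. The members were all gene names of the count table made of PSM, one of the letters A, B, C or D, and a number, which gave 39 of 44659 names. The rule used the name alone and no measured value. An siRNA and a medium experiment were covered. In the siRNA experiment, cells were harvested from 42 h after transfection with a pool of 2 siRNAs against CTU2 (siCTU2), a subunit of the enzyme that thiolates the wobble uridine of some transfer RNAs, or with the control siRNA GL2 (siGL2). In the medium experiment, cells spent 18 h in fresh medium without glutamine (mQ) or with it (pQ). Cells of all 4 conditions were then given the transcription inhibitor triptolide at 25 µM, either by itself (T) or together with the translation inhibitor cycloheximide at 100 µg/ml (TCHX), and harvested at 0, 3 and 5 h. This gave 24 groups of 3 replicates, or 72 libraries. All groups carried triptolide, and the 0 h libraries were collected right after it was added. The sources used here do not say whether replicates came from separate cultures, so p-values measure only the spread between these libraries.

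The 26S proteasome degrades proteins that carry ubiquitin chains. Its core is a barrel in which outer rings of alpha subunits (PSMA genes) gate the entry and inner rings of beta subunits (PSMB genes) carry the catalytic sites of PSMB5, PSMB6 and PSMB7. The regulatory particle on either end has a base with a ring of ATPases (PSMC genes) that unfold the substrate, and a lid (several PSMD genes) that holds the deubiquitinase PSMD14. PSMB8, PSMB9 and PSMB10 replace the catalytic subunits in the immunoproteasome of interferon-exposed and immune cells. PSMD5, PSMD9 and PSMD10 carry subunit names but are chaperones of base assembly. The genes are known to respond together to the transcription factor NFE2L1, which is deglycosylated by NGLY1 and cut by the protease DDI2 when proteasome activity falls.

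NFE2L1 and its relative NFE2L2 bind antioxidant response elements, whose core is written TGACNNNGC. In the RefSeq promoter windows (GRCh38.p14, 250 bases before to 50 after each annotated start), this core was present on either strand for 10 of the 34 members with a window (29.4%), and for 16.6% of all genes of the count table that had one. By window the shares were 24.4% of 41 and 13.5% of 30794. The letters CCAAT were found for 18 of the 34 members (52.9%) and for 40.8% of all genes. A match is a description of these letters and not a binding site. The 34 members with a window are not the same as the 34 tested below. PSMA7, PSMB1, PSMB6, PSMB7 and PSMD4 had no window. PSMA8, PSMB3, PSMB8, PSMB9 and PSMB11 had one but few or no counts under their own names. The 10 members with the core were PSMA4, PSMB3, PSMB9, PSMC4, PSMC5, PSMD1, PSMD3, PSMD5, PSMD9 and PSMD12. The stretches below are shown because PSMD3 was the member that rose after CTU2 depletion, PSMD5 and PSMD12 had the most negative change after triptolide in pQ, and PSMA4 was the alpha-ring gene whose 0 h difference between media was smallest. Each is written 5′ to 3′ on the strand of its gene, with the core in capitals.
PSMD3 (plus strand, chr17:39980760-39980788): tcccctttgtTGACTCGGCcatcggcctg
PSMD5 (minus strand, chr9:120843038-120843066): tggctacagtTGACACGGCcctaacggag
PSMD12 (minus strand, chr17:67366724-67366752): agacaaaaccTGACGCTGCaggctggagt
PSMA4 (plus strand, chr15:78540650-78540678): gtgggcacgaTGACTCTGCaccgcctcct
The capitals begin 37 bases before the annotated start in PSMD3, 134 in PSMD5, 165 in PSMD12 and 126 in PSMA4. PSMD3 has a further match on the other strand, 33 bases after the start, that is not shown.

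Libraries held 5987692 to 15534331 counts, and the 39 members took 0.807% to 1.35% of them. The melanoma genes MITF, SOX10 and S100B were at 95.0 CPM (each gene's share of the counts of its library, scaled to 1e+06) or more in all 24 libraries at 0 h, and AXL at 20.1 to 83.1 CPM. CTU2 itself was at 17.5 to 35.0 CPM in the 18 siGL2 libraries and at 0.133 to 2.95 CPM in 17 of the 18 siCTU2 libraries. The siCTU2 TCHX 5 h replicate 3 library held 10.4 CPM. It and the libraries mQ T 5 h replicate 3 and pQ TCHX 0 h replicate 3 had counts for 19896 to 20364 genes, against 15507 to 17495 genes in the other 69.

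The members themselves set apart a further group of libraries. PSMC1, a base ATPase, was at 911 to 2126 CPM in 6 of the 8 replicate 3 libraries taken at 5 h, against 216 to 671 CPM in the remaining 66 libraries of the series. In the same 6 libraries PSMA5, an alpha-ring subunit, was at 27.6 to 52.1 CPM, against 75.6 to 190.3 CPM in 62 of the others. Of the genes above 20 CPM on average, 32.3% to 43.8% lay more than 1.5-fold from the mean of the other replicates of the group in these 6 libraries. The summed level of all members did not stand out there (8805 to 13422 CPM). The other 5 h libraries of replicate 3, siCTU2 TCHX and mQ T, were among the 3 with most genes, with PSMA5 at 54.6 and 59.1 CPM. The mQ T 0 h replicate 2 library was in between, with 549 CPM of PSMC1 and 46.4 CPM of PSMA5. The part that sample handling, RNA quality or library preparation played was not tested. Results after triptolide are therefore given with and without the 5 h libraries of replicate 3, a choice made after the data were seen.

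**Figure D1:**
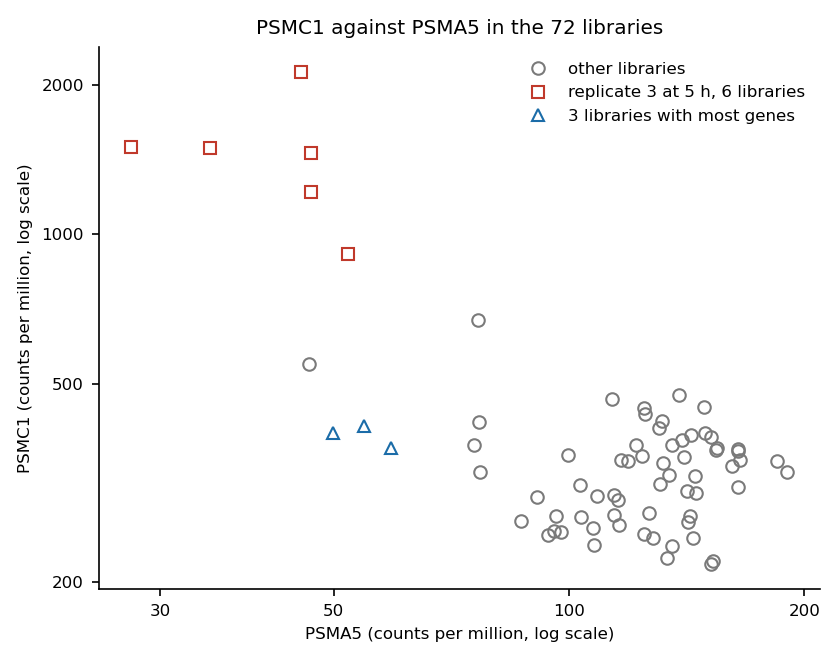
PSMC1 (vertical axis) against PSMA5 (horizontal axis) in CPM, both on log scales, with 1 symbol for each of the 72 libraries. The 6 replicate 3 libraries at 5 h sit at the upper left with PSMC1 between 911 and 2126 CPM, and the 3 libraries with most genes at PSMA5 levels of 49.9 to 59.1 CPM.

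Of the 39 members, 34 passed the filter on low counts in the 0 h fits. PSMA8, a testis alpha subunit, had 44 counts in 3 libraries and none elsewhere, and PSMB11, a thymus beta subunit, had 5 counts in all. The immunoproteasome subunits PSMB8 and PSMB9 had 0 and 6 counts over the 72 libraries. Names that mark extra copies of these genes added 12 counts for PSMB8 and 53 for PSMB9. PSMB10 was measured, at 34.5 to 49.9 CPM over the 24 libraries at 0 h. PSMB3, a structural beta subunit, had 7 counts under its own name and 4424 under an extra-copy name, so its level is uncertain. PSMC4 was measured at 1.82 to 4.86 CPM and also has an extra-copy name with 35 counts, and its values are as uncertain.

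The first question was whether the members differed between conditions before decay. In the T arm at 0 h, 19 of the 34 members were lower and 1 was higher in siCTU2 than in siGL2, by edgeR's quasi-likelihood test with a Benjamini-Hochberg adjusted p under 0.05. Over all 12292 genes tested, 18.2% were lower and 17.8% higher. The 3 libraries of each group did not overlap for 24 members that were lower and 1 that was higher, against 23.3% and 23.8% of all genes. The median of the members' differences was -0.23 on the log2 scale, against 0.00 over all genes, and 32 of the 34 differences were negative. Added up, the members were at 10313 ± 139 CPM in siCTU2 and 12187 ± 305.9 CPM in siGL2 (mean ± SD, n = 3), so that the siCTU2 sum was 15.4% lower. In bulk RNA a lower level of these mRNAs per cell and a smaller share of cells that express them cannot be told apart.

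The largest falls were in the base ATPases. PSMC6 was at 177, 163 and 147 CPM in the 3 siCTU2 libraries and at 271, 299 and 256 CPM in siGL2, a difference of -0.77 ± 0.08 (log2, SE, adjusted p = 1.0e-06 by edgeR). PSMC3 was at 149, 140 and 135 CPM against 245, 237 and 212 CPM, a difference of -0.72 ± 0.08 (adjusted p = 1.0e-06 by edgeR). Both genes had their highest siCTU2 library well below the lowest siGL2 library. PSMC5 (-0.36) and PSMC1 (-0.28) also passed the test in the T arm. PSMC2 (-0.21, adjusted p = 0.052 by edgeR) and PSMC4, with low and uncertain counts (-0.47, adjusted p = 0.25 by edgeR), did not.

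In the beta ring 5 of the 6 tested genes fell. PSMB2, which has no catalytic site, was at 302, 276 and 276 CPM in siCTU2 and at 423, 428 and 389 CPM in siGL2 (-0.54 ± 0.07 log2, adjusted p = 7.3e-06 by edgeR), without overlap. PSMB1 (-0.37), PSMB4 (-0.37), PSMB6 (-0.26) and PSMB7 (-0.19) followed. PSMB6 carries the caspase-like and PSMB7 the trypsin-like site. PSMB5, with the chymotrypsin-like site, was at 363, 347 and 357 CPM against 378, 384 and 373 CPM, and its difference of -0.09 did not pass (adjusted p = 0.28 by edgeR). PSMB10, the inducible counterpart of PSMB7, was at 49.9, 34.5 and 44.3 CPM against 44.6, 42.7 and 42.7 CPM, so its groups overlapped.

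The lid gave 5 falls and the only rise among its 8 genes. PSMD13 (-0.49), PSMD6 (-0.49), the deubiquitinase PSMD14 (-0.40), PSMD7 (-0.35) and PSMD11 (-0.20) were lower. PSMD3 was at 325, 361 and 348 CPM in siCTU2 and at 311, 271 and 284 CPM in siGL2, a difference of 0.25 ± 0.07 (adjusted p = 0.010 by edgeR). Of the base subunits without ATPase activity, the scaffold PSMD1 (-0.43) and the ubiquitin receptor PSMD4 (-0.31) fell and the other scaffold PSMD2 (-0.15, adjusted p = 0.069 by edgeR) did not pass. In the alpha ring the differences were small. PSMA1 (-0.24), PSMA2 (-0.21) and PSMA4 (-0.19) passed and the other 4 of the 7, at -0.18 to -0.06, did not. None of the chaperones PSMD5 (-0.27), PSMD9 (-0.05) and PSMD10 (0.27) passed. Of the 20 calls, 13 were kept whichever library was left out. The rise of PSMD3 was lost without siGL2 replicate 2, when 14 members, all lower, passed. The share of all genes in that fit is not given here.

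The TCHX libraries at 0 h are a second set of 6 from the same conditions. There 23 of the 34 members were lower, with 18.9% of all genes, and 3 higher, with 18.3% of all genes. PSMD3 was higher again, at 460, 383 and 433 CPM against 260, 280 and 285 CPM (0.64 ± 0.08 log2, adjusted p = 3.8e-06 by edgeR), and PSMD10 rose by 0.45. Of the 19 members lower in the T arm, 17 were also lower in the TCHX arm. The exceptions were PSMD4 (-0.12, adjusted p = 0.24) and PSMC1. PSMC1 was lower in the T arm, at 271, 314 and 358 CPM against 398, 366 and 377 CPM, and higher in the TCHX arm, at 466, 407 and 448 CPM against 310, 351 and 377 CPM (0.36 ± 0.08 log2, adjusted p = 0.0021 by edgeR). The difference between the arms was 0.63 ± 0.13 for PSMC1 (unadjusted p = 5.9e-05) but did not pass across all genes (adjusted p = 0.29 by edgeR). No member or other gene passed that test, with 7 members and 983 of 13089 genes at an unadjusted p under 0.05.

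**Figure D2:**
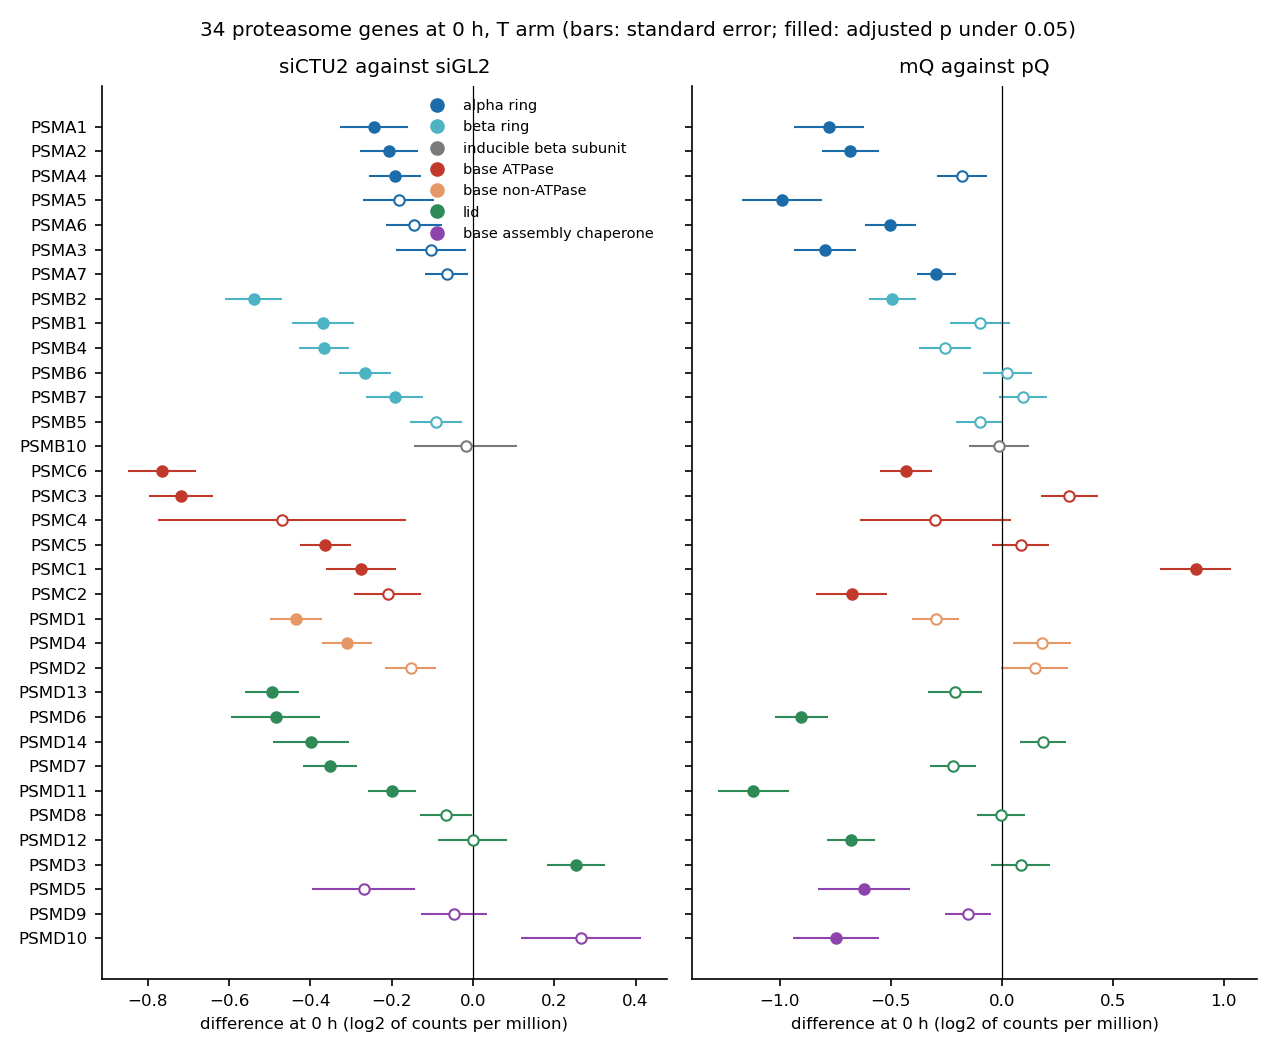
Difference at 0 h in the T arm for the 34 tested members (log2, horizontal axes), siCTU2 against siGL2 on the left and mQ against pQ on the right, with the standard error as a bar and the role as a colour. Filled circles passed an adjusted p under 0.05. On the left 19 members are filled below 0 and 1 above it, on the right 14 below and 1 above.

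Without glutamine, 14 of the 34 members were lower and 1 was higher than with it in the T arm at 0 h. Over the 12374 genes tested, 12.4% were lower and 12.5% higher. The libraries did not overlap for 18 members that were lower and 1 that was higher, against 24.8% and 18.0% of all genes. The members' median was -0.24 on the log2 scale against 0.01 over all genes. Their sum was 8670 ± 538 CPM in mQ and 10129 ± 65 CPM in pQ (mean ± SD, n = 3), 14.4% lower.

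The alpha ring held 6 of the 14 falls. PSMA5 was at 76.7, 46.4 and 76.9 CPM in mQ and at 144, 153 and 114 CPM in pQ, a difference of -0.99 ± 0.18 (log2, SE, adjusted p = 0.0028 by edgeR). The mQ replicate 2 library was the lowest, and the groups did not overlap. PSMA3 (-0.80), PSMA1 (-0.78), PSMA2 (-0.68), PSMA6 (-0.50) and PSMA7 (-0.29) also fell, and PSMA4 (-0.18, adjusted p = 0.27 by edgeR) did not pass.

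The lid gave the largest single fall. PSMD11, whose product helps to hold the lid on the core, was at 294, 184 and 313 CPM in mQ and at 577, 613 and 591 CPM in pQ (-1.12 ± 0.16 log2, adjusted p = 0.00072 by edgeR). PSMD6 was at 66.6, 52.0 and 65.4 CPM against 125, 122 and 110 CPM (-0.90 ± 0.12, adjusted p = 0.00046 by edgeR). Both separated the groups by a gap wider than either group's range. PSMD12 fell by 0.68, and the other 5 lid genes did not pass.

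Among the remaining members PSMB2 (-0.49) was the one beta-ring gene that passed. The catalytic PSMB5 (-0.10), PSMB6 (0.03) and PSMB7 (0.10) and the inducible PSMB10 (-0.01) did not. PSMC2 (-0.68) and PSMC6 (-0.43) fell in the base. Of the chaperones, PSMD10 (-0.75) and PSMD5 (-0.62) fell and PSMD9 (-0.15) did not pass. PSMC1 was the single member that was higher, at 418, 549 and 333 CPM in mQ against 245, 220 and 272 CPM in pQ (0.87 ± 0.16 log2, adjusted p = 0.0030 by edgeR). Its highest value was in the mQ replicate 2 library that also had the lowest PSMA5 and PSMD11. Without that library the count was 17 lower and 1 higher, and 9 of the 15 calls were kept whichever library was left out. The fewest members, 10, passed without pQ replicate 2. Shares of all genes with 1 library left out are not given here, so these counts are not read as a result about the members. High PSMC1 with low PSMA5 was also what set apart the 6 replicate 3 libraries at 5 h. In the mQ TCHX libraries at 0 h PSMC1 was at 312, 248 and 252 CPM and PSMA5 at 103, 94.0 and 95.7 CPM. Whether differences between libraries contribute to the values of mQ in the T arm was not tested.

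**Figure D3:**
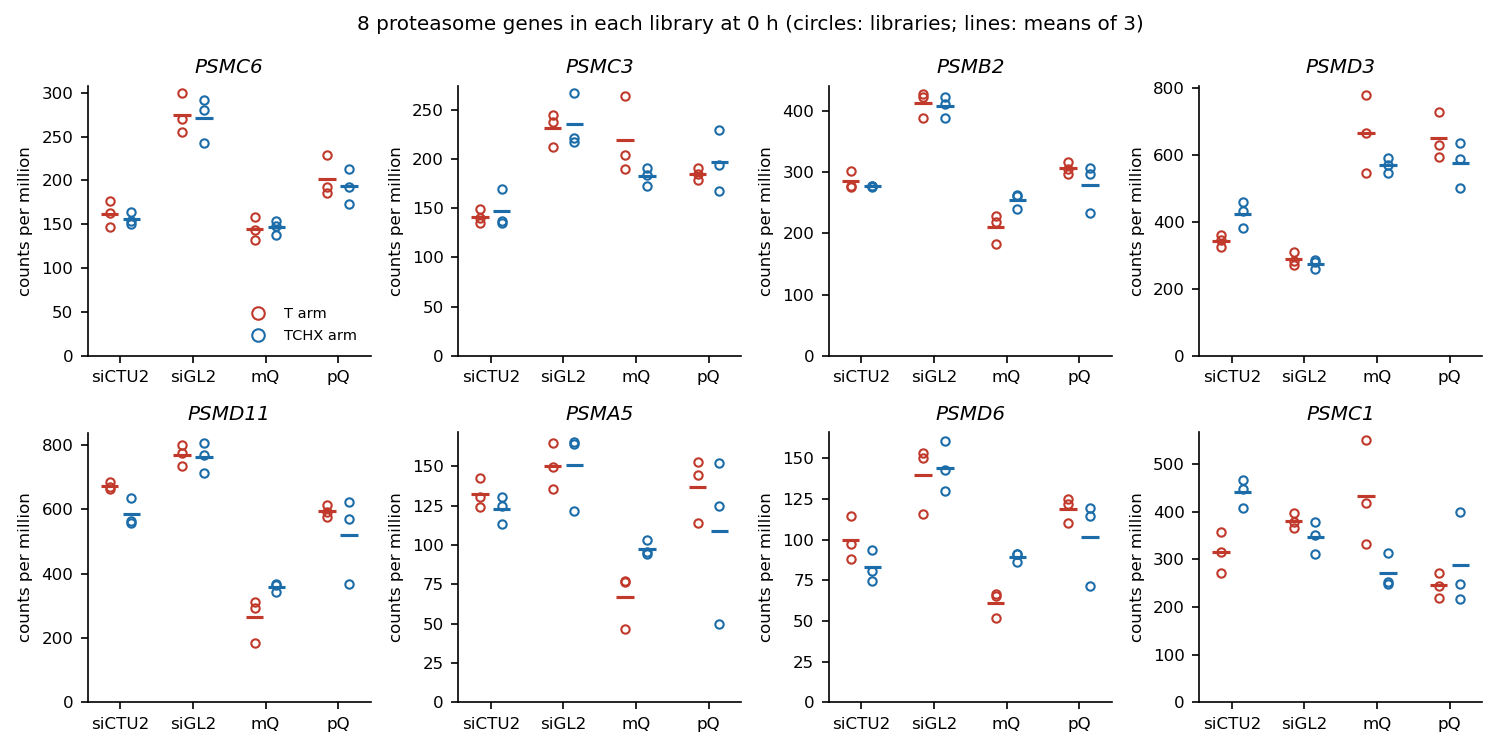
CPM of 8 members in each library at 0 h, for the 4 conditions, with T libraries in red and TCHX libraries in blue and the mean of 3 as a line. PSMC6, PSMC3 and PSMB2 are lower in all siCTU2 than in all siGL2 libraries of both arms, and PSMD11 and PSMA5 show 1 pQ TCHX library at the mQ level or below it.

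In the TCHX arm at 0 h the medium gave 4 lower members and none higher (2.65% of all genes were lower and 3.82% higher). Of the 14 members lower in the T arm, 1 (PSMD12) was among these 4. PSMD11 was at 344, 366 and 367 CPM in mQ and at 571, 624 and 368 CPM in pQ. The low pQ value was in replicate 3, the library with counts for more genes, in which PSMA5 (49.9 CPM) also lay below all 3 mQ libraries (94.0 to 103.3 CPM). Without that library 14 members were lower, against 9.71% of all genes, and 10 of them were among the 14 of the T arm. PSMC1 did not pass there (0.25 ± 0.10, adjusted p = 0.095 by edgeR), and was at 312, 248 and 252 CPM in mQ. With all 12 libraries no member and no other gene differed between the arms (edgeR). An unadjusted p under 0.05 was reached by 10 members. The count of all genes at that p is not given here, so the 10 are not read as a result about the members.

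Between the experiments, 6 members were lower in both T-arm comparisons, which is 31.6% of the 19 and 42.9% of the 14. The 31.6% is a smaller share than the 14 lower in mQ are of all 34 members. Of all genes tested in both comparisons, 2.67% were lower in both. These were PSMA1, PSMA2, PSMB2, PSMC6, PSMD6 and PSMD11. PSMC3 differed by -0.72 between siRNAs and by 0.31 (adjusted p = 0.10 by edgeR) between media. PSMA5 differed by -0.18 (adjusted p = 0.11 by edgeR) and by -0.99. Whether the responses differ between the experiments was not tested.

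Of 22 pathway genes outside the naming rule, 20 were tested. In siCTU2 7 were lower and 3 higher, against 18.2% and 17.8% of all genes. The largest difference was in DDI2, the protease that activates NFE2L1, at 22.9, 28.0 and 27.3 CPM against 161, 152 and 150 CPM (-2.56 ± 0.10 log2, adjusted p = 1.1e-12 by edgeR). NFE2L1 itself was at 0.04 and NGLY1 at -0.03, and neither passed. POMP, the maturation factor of the core, fell by 0.32 and ADRM1, a ubiquitin receptor of the base, fell by 0.36. PSME3 (-0.25) and PSME4 (-0.21), which encode other activators of the core, the inhibitor PSMF1 (-0.27) and the deubiquitinase USP14 (-0.22) were also lower. AKIRIN2, which brings proteasomes into the nucleus, rose by 0.65, the core chaperone PSMG1 by 0.30 and the ligase UBE3C by 0.27. DDI2 was as low in the TCHX arm (-2.45 ± 0.09). In mQ 4 were lower, namely the lid subunit SEM1 (-0.80), PSMG2 (-0.53), POMP (-0.38) and USP14 (-0.37), and NFE2L2 (0.46) was higher. Of all genes 12.4% were lower and 12.5% higher in mQ. DDI2 differed by 0.06 there and did not pass.

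The next question was how fast the mRNAs were lost once transcription was blocked. Changes were scaled to genes whose share of reads rose after triptolide, 197 in the siRNA and 81 in the medium experiment, a scale that assumes a falling total of mRNA, which was not measured here. No member was among these genes. On this scale the mean of 3 and 5 h lay below 0 h for 25 of the 34 members in siCTU2, 7 in siGL2, 19 in mQ and 15 in pQ (edgeR, adjusted p under 0.05), and no member was higher. Over all genes tested 62.6%, 47.5%, 58.6% and 64.3% were lower and 1.55%, 1.08%, 1.15% and 1.17% higher. The members' medians were -0.49, -0.36, -0.50 and -0.46, and those of all genes -0.71, -0.59, -0.66 and -0.71. Between 27 and 29 of the 34 members lay above the median gene of their condition.

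Without the 5 h libraries of replicate 3 the counts were 31, 20, 22 and 31 of 34, against 67.0%, 59.9%, 69.4% and 69.2% of all genes. The medians were then -0.38, -0.23, -0.53 and -0.37, and those of all genes -0.63, -0.53, -0.74 and -0.66. In that fit 15 members were lower in all 4 conditions, and PSMC4 alone was lower in none. Of all genes tested in the 4 conditions 50.8% were lower in all of them, and of the members 44.1%. With all libraries 5 members were (PSMB5, PSMC6, PSMD1, PSMD7 and PSMD12), which is 14.7% against 39.3% of all genes.

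Scaling decides the sign. With TMM factors, which set the median gene near 0, the members' medians were 0.19, 0.23, 0.18 and 0.23, and 9, 10, 4 and 11 members were higher (9.92%, 6.53%, 4.10% and 7.04% of all genes were). The same holds for the plain share of counts, where the sum of the members was higher at 5 h than at 0 h in 12 of 12 T series and in 11 of 12 TCHX series. In siGL2 it went from 12187 ± 305.9 CPM at 0 h to 13368 ± 159 CPM at 5 h in the T arm (mean ± SD, n = 3). In mQ it went from 8670 ± 538 to 9453 ± 62 CPM.

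**Figure D4:**
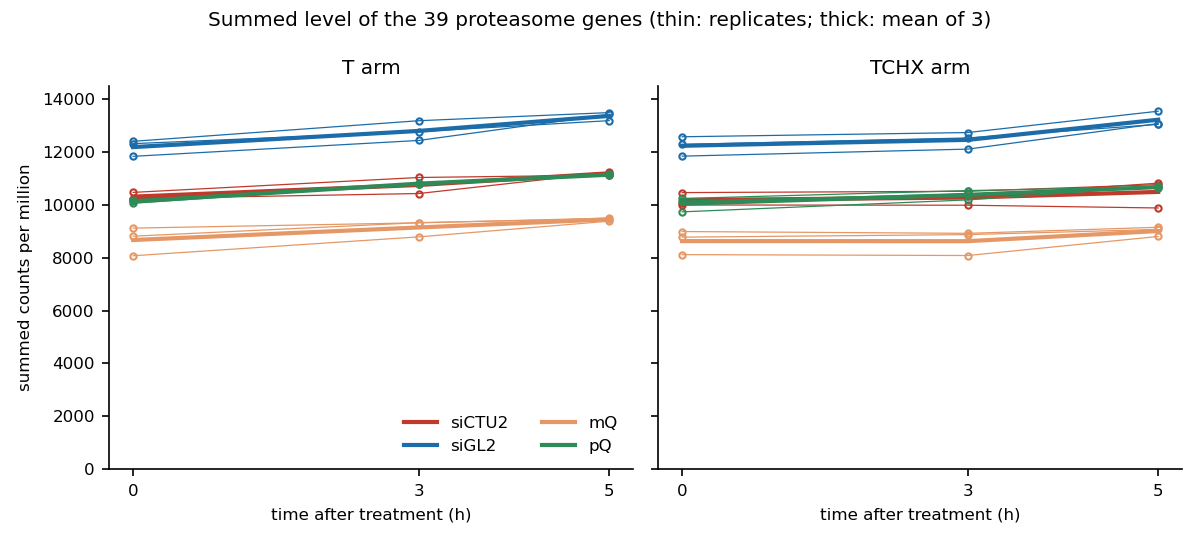
Summed CPM of the 39 members against time after treatment (h), in the T arm on the left and the TCHX arm on the right, with thin lines for replicates and thick lines for the mean of 3. The thick siGL2 lines lie above the siCTU2 lines and the pQ lines above the mQ lines at all times in the mean, and each T-arm mean is higher at 5 h than at 0 h.

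The members spanned a wide range within each condition. The most negative in siCTU2 were the chaperone PSMD5 (-1.36 ± 0.29 log2, adjusted p = 0.00073 by edgeR) and PSMC6 (-1.06). For PSMD5 the counts scaled to stable genes were 355, 318 and 295 at 0 h, 198, 190 and 163 at 3 h, and 108, 123 and 24.3 at 5 h. The lowest value was in replicate 3, and without the 5 h libraries of that replicate the change was -1.14. In siGL2 they were PSMD5 (-0.85, adjusted p = 0.068 by edgeR) and PSMD3 (-0.83). PSMD3 stood at 3879, 3449 and 3376 scaled counts at 0 h and at 1692, 1921 and 1835 at 5 h, with no overlap.

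In pQ the lowest were PSMD5 (-1.02) and PSMD12 (-0.94), and in mQ they were PSMC1 (-0.97) and PSMC6 (-0.82). The PSMC1 value in mQ starts from the high 0 h libraries, at 4880, 6922 and 4492 scaled counts. The least negative members were PSMC1 (0.06) and PSMD2 (-0.21) in siCTU2, PSMC4 (0.38) and PSMC1 (-0.05) in siGL2, PSMA1 (0.07) and PSMD10 (0.00) in mQ, and PSMC4 (0.31) and PSMC1 (0.18) in pQ. None of these 8 passed the test. Single libraries carried the PSMC4 values, with 229 scaled counts in siGL2 T 3 h replicate 3 and 196 in pQ T 3 h replicate 1 against 19.4 to 68.0 in the other T libraries of these conditions. The PSMC1 values rested on replicate 3, since its 5 h T libraries held 10065, 11346 and 10323 scaled counts in siCTU2, siGL2 and pQ, against 2458 to 3647 in the other replicates. Without them the changes were -0.34, -0.46 and -0.31. The catalytic PSMB5 fell in all 4 conditions, with changes of -0.44 (siCTU2), -0.32 (siGL2), -0.53 (mQ) and -0.38 (pQ), while PSMB6 passed in siCTU2 (-0.26) and mQ (-0.51) and PSMB7 in all but siGL2 (-0.32). PSMB10 passed in siCTU2 (-0.34) and mQ (-0.65).

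The difference in decay between conditions passed for no member, by edgeR, either between siRNAs or between media. At an unadjusted p under 0.05 there were 1 and 4 members, with no count of all genes given here to set beside them. Across all genes 15 of 14259 passed between siRNAs (0.105%) and none of 14177 between media. The members' medians were -0.14 and -0.06, against -0.09 and 0.08 over all genes. Between media the median was 0.57 in the alpha ring and -0.40 in the base ATPases, though no member passed. Both medians are counted from 0 h. There most alpha-ring genes and the ATPases PSMC2 and PSMC6 were lower in mQ, and PSMC1 was higher. Without replicate 3 as a whole 7 members passed as higher in mQ (PSMA1, PSMA2, PSMA3, PSMA5, PSMA6, PSMD6 and PSMD10) and PSMC1 as lower, against 3.48% of all genes higher. The 7 genes were lower and PSMC1 was higher in mQ at 0 h, the level from which the change is counted. Without the 5 h libraries of replicate 3 alone, PSMC1 alone passed (-0.75 ± 0.19, adjusted p = 0.048 by edgeR), against 1.02% of all genes lower.

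The last question was whether blocking translation spared the mRNAs. The cycloheximide effect is the TCHX level minus the T level, over 3 and 5 h, on the same scale. In siCTU2 2 members were higher, PSMD5 (0.79 ± 0.25, adjusted p = 0.029 by edgeR) and PSMD3 (0.29 ± 0.10, adjusted p = 0.038), against 21.0% of all genes. In siGL2 it was PSMD3 alone (0.39 ± 0.10, adjusted p = 0.013 by edgeR), against 12.1% of all genes. No member passed in mQ or pQ, where 5.12% and 12.3% of all genes were higher. An unadjusted p under 0.05 was reached by 1 and 3 members, without a count of all genes given here for comparison. No member was lower in any condition, and of all genes 0.169%, 0.555%, 0.119% and 0.457% were in siCTU2, siGL2, mQ and pQ. The members' medians were -0.01, -0.08, -0.10 and -0.09 in siCTU2, siGL2, mQ and pQ, against 0.22, 0.05, 0.05 and 0.06 over all genes.

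For PSMD5 in siCTU2 the scaled counts at 5 h were 108, 123 and 24.3 in the T arm and 208, 151 and 255 in the TCHX arm. The replicate 3 values were the extremes of both arms. The TCHX one is the library with 10.4 CPM of CTU2, and with the 3 libraries with most genes left out no member passed in siCTU2. For PSMD3 the TCHX libraries were at 3498, 4785 and 4376 at 5 h and the T libraries at 2762, 3345 and 2655, so they did not overlap. In siGL2 they were at 2308, 2969 and 2006 against 1692, 1921 and 1835. At 0 h all 3 siCTU2 TCHX libraries already held more PSMD3 than the T libraries (4980 to 5652 against 4443 to 4626 scaled counts), although no gene passed the test between arms at 0 h, and with the difference at 0 h subtracted no member passed in siCTU2 or siGL2.

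Without the 5 h libraries of replicate 3, PSMD5 was higher with cycloheximide in siCTU2 (0.47), siGL2 (0.32) and mQ (0.64), PSMC6 in siCTU2 (0.32) and mQ (0.50), PSMD12 in siGL2 (0.28) and mQ (0.44), PSMD3 in siGL2 (0.45) and PSMC1 in siCTU2 (0.39), and PSMC4 was lower in siGL2 (-1.04). All of these had an adjusted p of 0.039 or less by edgeR, and no member passed in pQ. The PSMC1 value was no larger than the difference between the siCTU2 arms at 0 h (0.40 ± 0.33), and siCTU2 TCHX 5 h replicate 2 held 6050 scaled counts of it against 3259 in replicate 1. Without replicate 3 as a whole, PSMC1 in siCTU2 (0.38, adjusted p = 0.077 by edgeR) and PSMC4 in siGL2 (-0.45, adjusted p = 0.23 by edgeR) did not pass. The shares of all genes that were higher were 18.8%, 17.3%, 24.4% and 12.9% in that fit, and 1.30%, 2.69%, 0.481% and 0.832% were lower.

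**Figure D5:**
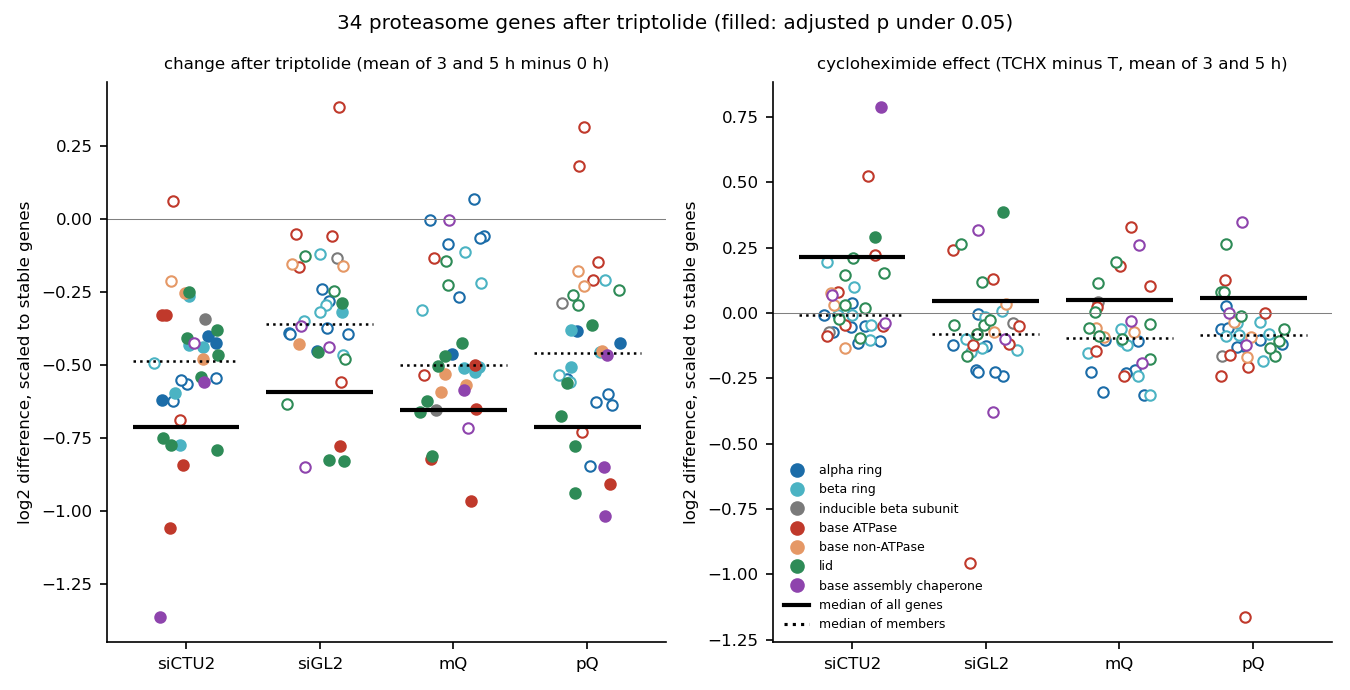
Change in the T arm (left) and cycloheximide effect (right) of the 34 tested members in the 4 conditions, as log2 differences scaled to stable genes, with the role as a colour and filled circles for an adjusted p under 0.05. The dotted line is the members' median and the solid line that of all genes. The members' median lies above that of all genes on the left and below it on the right in each condition.

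The cycloheximide effect did not differ between conditions for any member by edgeR, and 0.379% of all genes passed between siRNAs and none between media. In each experiment 1 member had an unadjusted p under 0.05, without a count of all genes given here for comparison. The index of translation-dependent decay, which is the TCHX minus the T level divided by the 0 h level, gave the same counts of 0. At an unadjusted p of at most 0.05 in a linear model no member differed in either experiment, against 8.15% of 12263 genes between siRNAs and 4.78% of 12395 between media. The members' median index was 0.02 ± 0.08 in siCTU2, -0.04 ± 0.04 in siGL2, -0.07 ± 0.09 in mQ and -0.04 ± 0.03 in pQ (mean ± SD of 3 replicates), and over all genes 0.10, 0.02, 0.03 and 0.03.

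Among the pathway genes, NFE2L2 was higher with cycloheximide in all 4 conditions, with values of 0.72 (siCTU2), 0.64 (siGL2), 1.03 (mQ) and 0.61 (pQ) (edgeR, adjusted p of 0.00075 or less). AKIRIN2 was higher in siCTU2 (0.81), siGL2 (1.08) and pQ (1.05). DDI2 was higher in siGL2 (0.48) and mQ (0.81), PSMG3 in siCTU2 (0.52) and pQ (0.47) and PSME4 in siCTU2 (0.42). In the T arm 20 of 21, 14 of 20, 17 of 21 and 18 of 20 pathway genes fell in siCTU2, siGL2, mQ and pQ, against 62.6%, 47.5%, 58.6% and 64.3% of all genes. Their medians were -0.69, -0.50, -0.63 and -0.60, and those of all genes -0.71, -0.59, -0.66 and -0.71.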

How the data were processed

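QuantSeq 3′ libraries were made from cytoplasmic RNA of A375 cells. The authors deposited unnormalized counts of reads for each gene name. Per the labels and the study's methods, the authors trimmed reads with fastp (0.20.1), mapped them to GRCh38.p13 with HISAT2 (2.2.1) and assigned them with htseq-count (0.13.5) and the NCBI annotation. The handling of strand and of reads with several matches is not given in the sources used here, and counts may include PCR copies. The table held 0 spike-in names, and 0 of its columns were left without a sample.

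Groups came from sample titles. Tests used edgeR (4.0.16) in R (4.3.3) with filterByExpr and Benjamini-Hochberg adjustment over all genes at 0.05. The 0 h comparisons used the 6 T libraries and TMM. Fits after triptolide used 18 libraries, or 36 for differences between conditions, and median-of-ratios factors over stable genes (CPM above 0.2 and a rise of at least 1.1-fold after triptolide). The index of translation-dependent decay required 10 scaled counts at 0 h and a linear model with the replicate as a term. Alternatives were DESeq2 (1.42.0), other scalings, no filter, a replicate block, single times and libraries left out. In each 0 h comparison the 3 largest rises and falls past the threshold were named with all values, for decay the 2 extremes at either end, for cycloheximide the 3 largest calls and for differences every call; inducible subunits stand beside those they replace. The tests were tried on simulated data. The members and lists were chosen with earlier results of these data known. Same-numbered T libraries at 0 h deviated together in the siRNA experiment (correlations of 0.10 to 0.30 over 3 pairs) but not in the medium experiment (-0.18 to 0.13).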

Additional observations from a re-analysis of the deposited data

How the results depend on the processing

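Counts here are members past the threshold of 34. At 0 h, 20 members passed between siRNAs and 14 to 20 with 1 library left out, and 15 passed between media and 10 to 18 with 1 left out. Of the calls, 12 of 20 between siRNAs and 1 of 15 between media (PSMD12) kept their direction and threshold under every alternative run. Between media 4 passed in the TCHX arm. PSMC1 turned between siRNAs to 0.36 in the TCHX arm and 0.041 with both arms, and between media to -0.082 in the TCHX arm. The replicate block gave 23 calls between siRNAs and 14 between media at 0 h. Shares of all genes are not given here for this block or for 0 h fits with 1 library left out. Those counts are therefore not read as a result about the members.

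No decay call was kept under every alternative run. Decay counts (siCTU2 25, siGL2 7, mQ 19, pQ 15) were the least stable. At 3 h alone, 10 members passed in siCTU2 and 2 in siGL2. At 5 h alone, mQ gave 12 and pQ 8. Shares of all genes at single times are not given here, so these counts are not read as a result about the members. Stable genes taken at both times gave 23 in siGL2, 33 in mQ and 31 in pQ, all lower. Of all genes 78.0%, 84.8% and 78.4% were lower in these fits. That scale rests on only 8 genes in the siRNA and 3 in the medium experiment. TMM gave 10 calls in siCTU2, of which 9 were higher and 1 lower, against 9.92% and 18.4% of all genes. Its 4 calls in mQ were all higher, against 4.10% of all genes. The replicate block gave 13 lower members in siGL2 and 28 in pQ, against 57.9% and 73.2% of all genes. When the 5 h libraries of replicate 3 were dropped, siGL2 had 20 lower members and pQ had 31, against 59.9% and 69.2% of all genes. Leaving out 1 replicate gave decay counts of 4 to 22, 1 to 22, 5 to 21 and 3 to 31. Without replicate 3, 57.8%, 57.8%, 62.0% and 68.7% of all genes were lower in siCTU2, siGL2, mQ and pQ. The shares with replicate 1 or 2 left out are not given here. The deviations of same-numbered libraries correlated at 0.022 to 0.88 in siGL2, -0.0032 to 0.89 in pQ, -0.37 to 0.56 in siCTU2 and -0.52 to 0.54 in mQ. Each of the 18 siGL2 and 18 pQ libraries, 17 of 18 in siCTU2 and 14 of 18 in mQ correlated best with its own number. This is a hint from the data that the numbers pair samples. The column headers also carry a prefix shared by all libraries of the same number, but what it stands for is not stated. The main edgeR fits had no term for the replicate.

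Signs turned for members near 0. In siCTU2 PSMC1 was -0.27 with 3 h alone, -0.37 with stable genes at both times and -0.34 without the 5 h libraries of replicate 3, and PSMD2 was 0.52 with TMM. In siGL2 PSMC1 was 0.37 with 5 h alone and 0.64 with TMM, and PSMC4 was -0.20 with 5 h alone and -0.031 with stable genes at both times. In mQ PSMA1 was -0.067 with 3 h alone and -0.50 with stable genes at both times, and PSMD10 was 0.16 with 5 h alone, 0.69 with TMM, and 0.01 without either the libraries with most genes (0.0098) or the 5 h libraries of replicate 3 (0.012). In pQ PSMC1 was -0.33 with 3 h alone, -0.051 with stable genes at both times and -0.31 without the 5 h libraries of replicate 3, and PSMC4 was -0.19 with 5 h alone. With 1 replicate left out, PSMC1 ran from -0.24 to 0.15 in siCTU2, from -0.56 to 0.16 in siGL2 and from -0.28 to 0.36 in pQ, PSMC4 from -0.051 to 0.49 in siGL2 and from -0.87 to 0.71 in pQ, and in mQ PSMA1 from -0.11 to 0.32 and PSMD10 from -0.19 to 0.33.

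For cycloheximide (2, 1, 0 and 0 members, all higher), siCTU2 gave 0 with 3 h alone, with the 0 h difference subtracted and without the libraries with most genes. With stable genes at both times it gave 1, which was higher (19.1% of all genes were). With TMM it gave 4, of which 1 was higher and 3 lower, against 13.4% and 4.05% of all genes. In siGL2 it was 0 with 3 h alone, 5 h alone, the 0 h difference subtracted and stable genes at both times. Without the 5 h libraries of replicate 3 it was 4, of which 1 was lower. In mQ it was 1 with TMM, which was lower (1.39% of all genes were), and 3 without those libraries, all higher. In pQ it was 12 with stable genes at both times and 2 with TMM, all of them lower with cycloheximide. Of all genes 11.6% and 1.67% were lower in these fits. In pQ it was 1 each with DESeq2, no filter and the replicate block. Leaving out 1 replicate gave 0 to 2, 0 to 5, 0 to 4 and 0 to 3, counted in either direction. The decay difference between media was 1 with no filter and 1 without the 5 h libraries of replicate 3, and 0 to 8 with 1 replicate left out. With each arm's own 0 h level, the index of translation-dependent decay gave 4 members between siRNAs and 12 between media. Between media it gave 5 with TMM and 1 with no replicate block. Leaving out 1 replicate gave 0 to 3 between siRNAs and 0 to 4 between media. Shares of all genes in these index fits are not given here, so the counts are not read as a result about the members. The causes were not tested. Each group has 3 replicates. PSMC4, PSMB8 and PSMB9 have low counts, which may also be split over extra-copy names.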
